A study of Homo sapiens with 18 samples.

Results

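The genes described here are 41 genes of the unfolded protein response and of the ATF4 stress response, measured in a colorectal cancer cell line and in its drug-resistant subline. Their spots were taken by gene name from the non-control spots of every array, whatever their values. All 41 were found, on 97 spots with 52 probes, among the 36204 gene names of the array. The study asked which transcripts accompany resistance to oxaliplatin (OXA) and the response to OXA combined with Curcumin. RNA was profiled on 18 one-colour Agilent arrays, 3 for each of 6 groups, and the labels call the replicates biological. HT29 is a human colorectal adenocarcinoma line that is sensitive to OXA, and HTOXAR3 is 1 subline made from it by continuous exposure to rising doses of OXA. The arrays of each line hold untreated cells, cells exposed to OXA for 24 h, and cells exposed to both drugs together for the same time. The OXA dose was 10 µM for HT29 but 30 µM for HTOXAR3, while Curcumin was used at 10 µM throughout. Any contrast between treated lines thus sets unlike OXA doses against each other. None of the 18 arrays held cells given Curcumin alone, so its effect is read only in the presence of OXA.

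The unfolded protein response is the program by which a cell adjusts the folding capacity of its endoplasmic reticulum (ER). When unfolded proteins accumulate there, the sensors ATF6, IRE1 (encoded by ERN1) and PERK (encoded by EIF2AK3) act through the factors ATF6, spliced XBP1 and ATF4, which raise chaperones, disulfide isomerases and the machinery that degrades misfolded proteins. PERK shares its target, the initiation factor eIF2α, with kinases that respond to lack of amino acids, haem or to viral RNA, so that ATF4 also serves an integrated stress response that raises genes for amino acid supply. ATF4 protein is set largely by translation of its mRNA, and XBP1 activity by splicing, and neither of these is read by the expression probes used here. OXA is a platinum compound that forms DNA adducts, and Curcumin is a plant polyphenol that was used in the study as an inhibitor of NF-κB.

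Values are log2 intensities after background correction and quantile normalization, and a log2 change is the difference of the means of 3 arrays a group, given with the standard error (SE) of a limma model fitted to all gene names. A gene was called when its Benjamini-Yekutieli (BY) adjusted p was below 0.05 and its fold change above 1.2. Of the 41 genes, 39 were well above background on all 18 arrays. ERN1 was on 17 and STC2 on 3, and no spot of a member was saturated. Levels of different probes are not comparable with each other, so each gene is compared only with itself. In RNA of whole cultures, fewer cells with a transcript and less of it per cell cannot be told apart. The untreated, OXA and combination arrays of a line enter several comparisons each, so that a high OXA value raises the change after OXA and lowers the change on adding Curcumin by the same amount.

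Arrays of 1 group correlated at 0.984 or more, no pair above 0.994, and the share of spots well above background ranged from 52.4% to 63.6% over the arrays. Of 11 markers of colorectal epithelium, 9 were well above background on all arrays, CDX2 and CEACAM5 being the exceptions. The log2 of their summed intensity lay between 19.52 and 19.74 over the 6 groups. Of 10 markers of other cell types, 3 were well above background on all 18 arrays and 3 (COL3A1, ALB and GFAP) on no array, and the log2 of the summed intensity lay between 11.04 and 11.65.

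To show the letters through which the pathway is read, the promoters of the members were searched for 4 motifs on both strands. RefSeq promoters of GRCh38.p14, from 250 bases before to 50 bases after a gene's start, were at hand for 38 of the 41 genes in 56 windows, and PDIA3, PSPH and SHMT2 had none. The ER stress element (ERSE, CCAAT and CCACG with 9 bases of any kind between) lay in a window of 7 members and in 0.0769% of all 35116 windows. ERSE-II (ATTGG and CCACG with 1 base of any kind between) lay in 2 members and in 0.0541% of all windows. UPRE (TGACGTGG), whose reverse complement can share CCACG with an ERSE, lay in 0 members and in 0.729% of all windows. The composite element of ATF4 and a C/EBP partner (TGATGNAA) lay in 5 members and in 3.62% of all windows. The members were listed as known targets of these factors, so their share of motifs is a description. The stretches below are shown because their genes carry the changes described further on. PDIA6 and CRELD2 were added as genes with an ERSE whose brightest probe, which stands for the gene here, was called in no comparison. A further probe of PDIA6 was called, as given further on. CANX, also with an ERSE and not called, is not printed. All stretches are written 5′ to 3′ on the strand of the gene, end before its start, and have the motif on either strand in capitals.
HSPA5, ERSE, chr9:125241371-125241429, minus strand: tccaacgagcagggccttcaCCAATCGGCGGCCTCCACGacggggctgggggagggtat
XBP1, ERSE, chr22:28800583-28800641, minus strand: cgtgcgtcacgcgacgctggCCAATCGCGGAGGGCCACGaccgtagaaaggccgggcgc
CALR, ERSE, chr19:12938364-12938422, plus strand: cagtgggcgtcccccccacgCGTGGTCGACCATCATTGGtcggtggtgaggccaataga
HSP90B1, ERSE at 2 places, chr12:103930196-103930359, plus strand: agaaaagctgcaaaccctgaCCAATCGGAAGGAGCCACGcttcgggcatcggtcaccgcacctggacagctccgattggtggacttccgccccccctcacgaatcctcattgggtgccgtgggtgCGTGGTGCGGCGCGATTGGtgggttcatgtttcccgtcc
PDIA6, ERSE, chr2:10812833-10812891, minus strand: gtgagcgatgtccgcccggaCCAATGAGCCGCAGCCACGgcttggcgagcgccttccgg
CRELD2, ERSE, chr22:49918534-49918592, plus strand: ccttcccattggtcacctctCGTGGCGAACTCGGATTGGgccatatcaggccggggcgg
SDF2L1, ERSE-II, chr22:21642094-21642144, plus strand: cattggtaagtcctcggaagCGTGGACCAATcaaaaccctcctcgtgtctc
HERPUD1, ATF4 and C/EBP element and then ERSE-II, chr16:56931946-56932055, plus strand: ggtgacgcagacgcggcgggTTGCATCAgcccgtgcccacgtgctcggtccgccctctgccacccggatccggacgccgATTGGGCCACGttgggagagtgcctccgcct
ASNS, ATF4 and C/EBP element, chr7:97872449-97872496, minus strand: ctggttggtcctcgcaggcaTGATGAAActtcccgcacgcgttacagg
CHAC1, ATF4 and C/EBP element, chr15:40953242-40953289, plus strand: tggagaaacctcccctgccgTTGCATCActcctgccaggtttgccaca
SLC1A5, ATF4 and C/EBP element, chr19:46784884-46784931, minus strand: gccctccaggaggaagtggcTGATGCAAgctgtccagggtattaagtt

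OXA lowered most of the members it changed, in both lines, and raised few. In HT29, 20 of the 41 genes fell and 3 rose, which is 23 called members against 15.9% of all gene names in that comparison (8.33% higher, 7.62% lower). In HTOXAR3, 15 fell and 3 rose, against 10.2% of all gene names (5.31% higher, 4.94% lower). ER chaperones (HSPA5, HSP90B1, SDF2L1 and MANF), XBP1, the serine and asparagine synthesis genes and SLC7A5 were among the 13 genes that fell in both lines, 65% of those that fell in HT29 and 86.7% of those that fell in HTOXAR3. DDIT3 and PPP1R15A rose in both. The median log2 change of the members was −0.31 in HT29 and −0.21 in HTOXAR3, and that of all gene names was −0.01 and 0.01.

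When Curcumin was added to OXA, members moved up. In HT29, 18 of the 41 rose and 0 fell relative to OXA alone, against 5.53% of all gene names called (3.14% higher, 2.39% lower). In HTOXAR3, 18 rose and 3 fell, against 8.83% of all gene names (4.43% higher, 4.41% lower). Of the genes that rose, 16 did so in both lines, 88.9% of either list. DNAJB9, DDIT4, CHAC1 and HERPUD1 showed the 4 largest rises in HT29, and with ASNS the 5 largest in HTOXAR3. The median log2 difference of the members was 0.37 in HT29 and 0.33 in HTOXAR3, and that of all gene names was −0.02 in both.

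Relative to untreated cells, the combination split the members. In HT29, 13 rose and 15 fell, against 18.6% of all gene names called (9.56% higher, 9.02% lower), and with each array scaled to its 75th percentile in place of quantile normalization the split was 9 to 16. In HTOXAR3, 11 rose and 9 fell, against 17.5% of all gene names (8.82% higher, 8.64% lower). All 11 genes that rose in HTOXAR3 also rose in HT29, 84.6% of the list there, and all 9 that fell also fell in HT29, 60% of the list there. In both lines 4 of the 5 feedback and growth genes rose and 0 fell, while HSPA5 fell, as did 6 of the 6 synthesis genes in HT29 and 4 in HTOXAR3. Of the 5 transcription factors, DDIT3 rose in both lines and ATF5 and XBP1 fell in both. Between the untreated lines, 7 members were called, 3 higher and 4 lower in HTOXAR3, against 11.5% of all gene names (6.26% higher, 5.28% lower).

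Probes well above background on all arrays were called more often than others, and 39 members are of that kind. Among all gene names of that kind, the share called was 31.0% after OXA in HT29 and 20% in HTOXAR3. On adding Curcumin it was 10.9% in HT29 and 17.3% in HTOXAR3. For the combination against untreated cells it was 35.6% and 33.4%, and between the untreated lines 21.6%. The counts also rest on the spread shared over all 6 groups. With only the arrays compared in the model, 9 and 7 members were called after OXA in HT29 and HTOXAR3, 0 and 2 on adding Curcumin, 13 and 13 for the combination against untreated cells and 0 between the untreated lines.

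**Figure D1:**
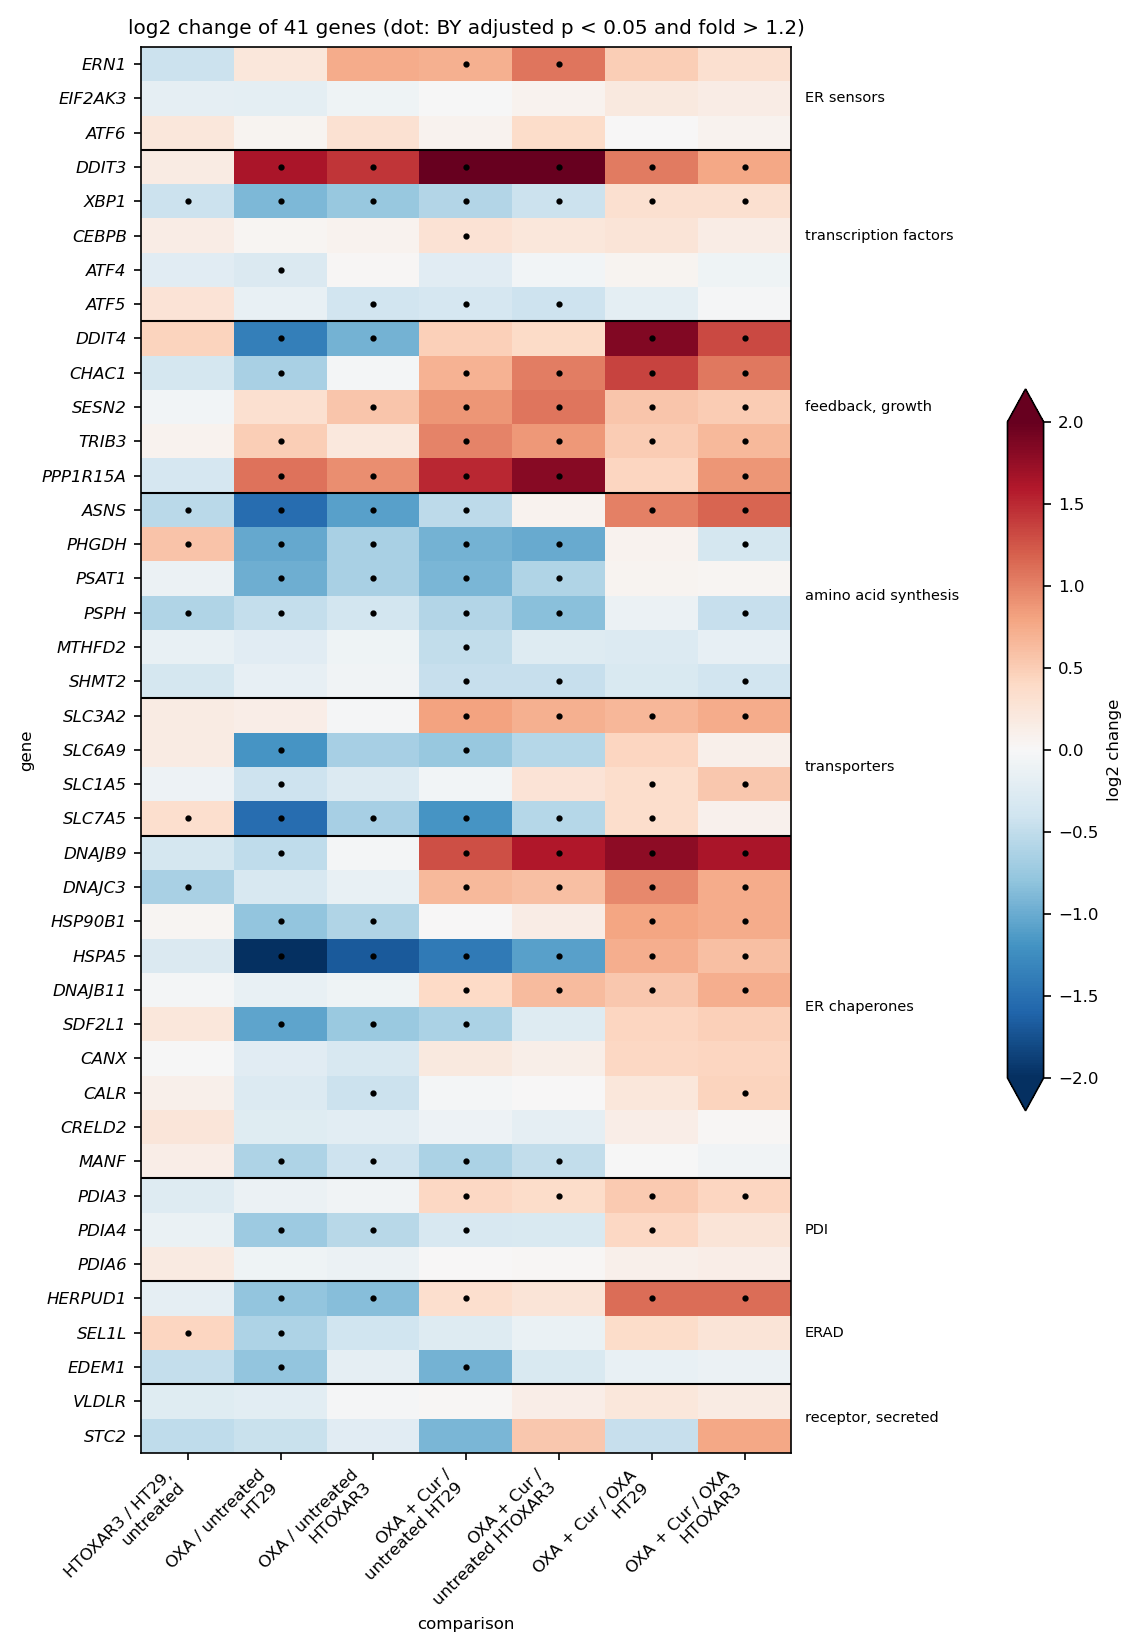
Log2 change of the 41 genes (rows, grouped by role) in the 7 comparisons of 2 groups (columns), from blue for lower to red for higher, with colours saturated beyond 2 and dots for called changes. The OXA columns are mostly blue, the columns of OXA plus Curcumin against OXA mostly red, and DDIT3 is red in all 6 treatment columns. ER, endoplasmic reticulum. PDI, protein disulfide isomerases. ERAD, degradation of misfolded proteins.

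Of the 10 ER chaperones, 5 fell after OXA in each line, where 7.62% of all gene names fell in HT29 and 4.94% in HTOXAR3. HSPA5 fell furthest of all members. HSPA5 encodes BiP, the main chaperone of the ER lumen, which also holds the sensors inactive. In HT29, HSPA5 read 11.69, 11.73 and 11.54 untreated, 9.42, 9.65 and 9.45 after OXA and 10.12, 10.32 and 10.28 after OXA plus Curcumin. In HTOXAR3 it read 11.31, 11.39 and 11.40 untreated, 9.79, 9.65 and 9.63 after OXA and 10.28, 10.21 and 10.37 after the combination. The 3 treatments did not overlap in either line, with OXA lowest and the combination between. After OXA, HSPA5 was 4.43-fold lower in HT29 (log2 −2.15, SE 0.08, limma adjusted p = 3.91e-09) and 3.20-fold lower in HTOXAR3 (log2 −1.68, SE 0.08, limma adjusted p = 2.8e-07). Adding Curcumin raised it by 0.73 in HT29 (limma adjusted p = 0.00058) and by 0.60 in HTOXAR3 (limma adjusted p = 0.00189). The combination still left it below untreated cells, by 1.41 and 1.08 on the log2 scale with limma adjusted p of 2.07e-07 and 3.22e-06. Between the untreated lines the log2 difference was −0.29 (SE 0.08, limma adjusted p = 0.27).

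HSP90B1, the ER member of the HSP90 family, fell and then stood level with untreated cells. In HT29 it read 16.05, 15.91 and 16.16 untreated, 15.23, 15.18 and 15.32 after OXA and 16.18, 15.99 and 15.94 after the combination. The HTOXAR3 arrays read 16.09, 16.07 and 16.07 untreated, 15.51, 15.44 and 15.49 after OXA and 16.27, 16.09 and 16.32 after the combination. OXA arrays were below all others of their line, while untreated and combination arrays overlapped. The change after OXA was −0.79 in HT29 and −0.60 in HTOXAR3, and on adding Curcumin 0.79 and 0.75, all with SE 0.08 and called. The combination differed from untreated HT29 by 0.00 and from untreated HTOXAR3 by 0.15, neither called.

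DNAJB9, a J-domain co-chaperone of BiP that acts in the ER, rose above its untreated level. HT29 arrays read 10.15, 10.29 and 10.48 untreated, 9.71, 9.78 and 9.91 after OXA and 11.59, 11.74 and 11.44 after the combination. HTOXAR3 arrays read 9.92, 9.90 and 10.05 untreated, 9.95, 9.93 and 9.90 after OXA and 11.57, 11.47 and 11.66 after the combination. The combination arrays were the highest in both lines without overlap. Adding Curcumin raised DNAJB9 3.47-fold in HT29 (log2 1.79, SE 0.10, limma adjusted p = 9.67e-07) and 3.11-fold in HTOXAR3 (log2 1.64, SE 0.10, limma adjusted p = 1.3e-06). After OXA alone it fell by 0.51 in HT29, a call lost without untreated replicate 3, OXA replicate 1 or OXA replicate 2 (limma adjusted p of 0.0543 to 0.0621), and differed by −0.03 in HTOXAR3.

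Of the other J-domain proteins, DNAJC3 and DNAJB11 rose on adding Curcumin in both lines, by 0.96 and 0.75 for DNAJC3 and by 0.54 and 0.73 for DNAJB11. DNAJC3, which also inhibits eIF2α kinases, was lower in HTOXAR3 without drug, by 0.65 (SE 0.10, limma adjusted p = 0.00279), its arrays reading 11.36, 11.24 and 11.31 against 11.90, 12.05 and 11.93 in HT29. The lines did not overlap. Relative to untreated cells, the combination raised DNAJC3 by 0.65 in HT29 and 0.60 in HTOXAR3, and DNAJB11 by 0.39 and 0.64. The DNAJC3 calls were all lost when the mean of its 2 probes was taken. On adding Curcumin in HT29 that mean gave −0.65 over all arrays, with the dimmer probe missing on HT29 OXA replicate 1, and 0.41, not called, without that array, an alternative chosen after seeing the data. The DNAJB11 call for the combination against untreated HT29 was lost without untreated replicate 2 or combination replicate 1 or 2 (limma adjusted p of 0.0676 to 0.0789).

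SDF2L1, a partner of DNAJB11 in the ER lumen, followed HSPA5 after OXA. HT29 arrays read 15.50, 15.53 and 15.33 untreated, 14.59, 14.22 and 14.37 after OXA and 15.11, 14.62 and 14.75 after the combination. HTOXAR3 arrays read 15.67, 15.67 and 15.71 untreated, 15.06, 14.98 and 14.79 after OXA and 15.42, 15.33 and 15.53 after the combination. All OXA and combination arrays lay below the untreated arrays of their line. SDF2L1 fell by 1.06 in HT29 (SE 0.12, limma adjusted p = 0.000154) and by 0.74 in HTOXAR3 (SE 0.12, limma adjusted p = 0.00617). The combination against untreated HT29 gave −0.63, a call lost without untreated replicate 1 or 2 or combination replicate 2 or 3 (limma adjusted p of 0.0652 to 0.0821). The differences on adding Curcumin, 0.43 and 0.48, were not called.

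MANF, a secreted factor retained in the ER through BiP, fell with OXA (log2 −0.62 in HT29, −0.41 in HTOXAR3) and stayed low with the combination (−0.63 and −0.48, all 4 called). Its HTOXAR3 arrays read 14.52, 14.56 and 14.63 untreated, 14.17, 14.23 and 14.09 after OXA and 14.06, 14.03 and 14.17 after the combination. The untreated arrays were the highest, and the OXA and combination arrays overlapped. Adding Curcumin gave −0.00 and −0.08, not called. The lectin chaperone CALR fell after OXA in HTOXAR3 by 0.43 and rose there by 0.44 on adding Curcumin (SE 0.06 each). In HT29 the same differences were −0.27 and 0.23 and were not called. Its partner CANX and the factor CRELD2 were called in no comparison, with log2 changes between −0.32 and 0.43 for CANX and between −0.24 and 0.25 for CRELD2. The extremes of CRELD2, after OXA in HT29 and between the untreated lines, passed the adjusted p (limma, 0.0393 and 0.0427) and not the fold minimum.

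The disulfide isomerases, which make and rearrange disulfide bonds of folding proteins, differed among themselves. PDIA4 fell after OXA by 0.73 in HT29 and 0.55 in HTOXAR3 (SE 0.07 each). The probe that stands for PDIA3 differed after OXA by −0.11 and −0.07, not called. On adding Curcumin it rose by 0.52 in HT29 and 0.44 in HTOXAR3 (SE 0.08 each). That call in HTOXAR3 was lost without combination replicate 1 or 3 or OXA replicate 1 or 3 (limma adjusted p of 0.0766 to 0.0963). A further probe of PDIA3 fell after OXA by 0.76 in HT29 and 0.43 in HTOXAR3, both called. The probe that stands for PDIA6 was called in no comparison of 2 groups, its log2 changes lying between −0.11 and 0.17. A further probe of PDIA6 rose on adding Curcumin by 1.42 in HT29 and 1.26 in HTOXAR3, both called.

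Among the genes for degradation of misfolded proteins, HERPUD1, an ER membrane protein of that machinery, carries both an ERSE-II and an ATF4 and C/EBP element in the stretch printed above. HT29 arrays read 13.41, 13.40 and 13.40 untreated, 12.64, 12.68 and 12.52 after OXA and 13.64, 13.81 and 13.74 after the combination. HTOXAR3 arrays read 13.23, 13.22 and 13.21 untreated, 12.42, 12.34 and 12.34 after OXA and 13.47, 13.39 and 13.60 after the combination. The order was OXA, untreated, combination in both lines, without overlap. HERPUD1 fell after OXA by 0.79 (limma adjusted p = 7.13e-06) in HT29 and by 0.85 (limma adjusted p = 9.58e-06) in HTOXAR3. Adding Curcumin raised it 2.17-fold in each line, with log2 differences of 1.12 and 1.12 (SE 0.07 each) and limma adjusted p of 2.47e-06 and 1.37e-06. The combination against untreated HT29 gave 0.33, a call lost without any 1 array other than combination replicate 1 (limma adjusted p of 0.0565 to 0.101) and with either 75th percentile scaling (0.23 and 0.24). In HTOXAR3 it gave 0.27, not called.

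EDEM1, a mannosidase-like protein that marks misfolded glycoproteins, was lower than untreated cells by 0.79 after OXA and by 0.94 after the combination in HT29. Its HT29 arrays read 7.53, 7.20 and 7.41 untreated, 6.59, 6.46 and 6.71 after OXA and 6.44, 6.47 and 6.41 after the combination. Untreated arrays were above all treated arrays. In HTOXAR3 the changes were −0.18 and −0.30, not called, and the differences between the lines (0.61 and 0.64, SE 0.17) were not called either. SEL1L, the scaffold of the HRD1 ubiquitin ligase, fell by 0.62 after OXA in HT29, a call lost with the mean of its 3 probes. It was higher in untreated HTOXAR3 by 0.43 (arrays 10.03, 10.07 and 9.93 against 9.58, 9.66 and 9.51, no overlap), a call lost without any 1 of the 6 arrays (limma adjusted p of 0.069 to 0.204).

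**Figure D2:**
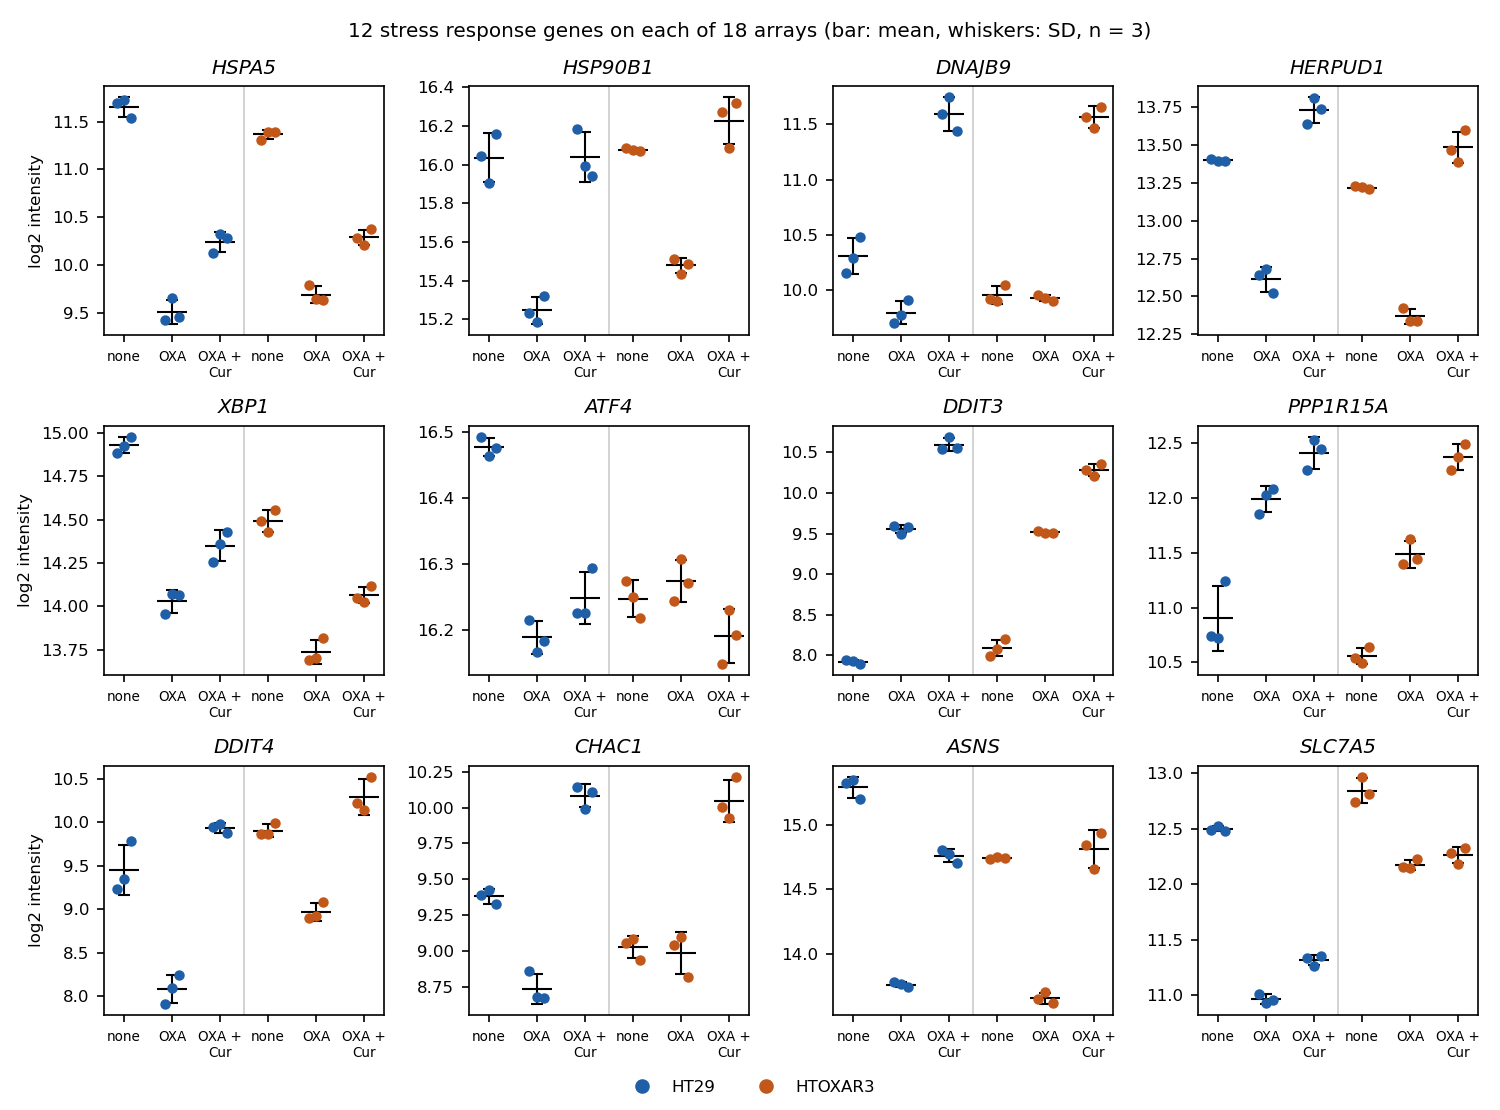
Log2 intensity of 12 genes on each of the 18 arrays, with untreated (none), OXA and OXA plus Curcumin (OXA + Cur) arrays of HT29 in blue and of HTOXAR3 in orange. Bars are means and whiskers SD of 3 arrays, and each panel has its own axis, which does not start at 0. HSPA5 arrays after OXA lie between 9.42 and 9.79, all below the untreated arrays, and DNAJB9 arrays after the combination lie between 11.44 and 11.74, above all others.

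Of the 3 sensors, ATF6 and EIF2AK3 were called in no comparison. Their log2 changes lay between 0.01 and 0.37 for ATF6 and between −0.20 and 0.19 for EIF2AK3. ERN1 arrays of HTOXAR3 read 4.54, 4.36 and 5.08 untreated, 5.35, 5.46 and 5.38 after OXA and 5.52, 6.00 and 5.65 after the combination. The treated arrays were all above the untreated arrays. ERN1 rose after the combination by 1.06 in HTOXAR3 (SE 0.16, limma adjusted p = 0.00191) and by 0.71 in HT29 (SE 0.16, limma adjusted p = 0.0433). The call in HT29 was lost with either 75th percentile scaling, with the replicate block, and without any 1 array other than untreated replicate 1 (limma adjusted p of 0.121 to 0.255 over those arrays). The probe was well above background on 17 of the 18 arrays.

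The transcription factors of the response did not move together. DDIT3 encodes CHOP, a factor induced by ATF4 that is linked to cell death under prolonged stress. In HT29, DDIT3 read 7.94, 7.93 and 7.89 untreated, 9.60, 9.50 and 9.57 after OXA and 10.54, 10.69 and 10.55 after the combination. In HTOXAR3 it read 8.0, 8.07 and 8.20 untreated, 9.53, 9.51 and 9.51 after OXA and 10.28, 10.21 and 10.36 after the combination. The order untreated, OXA, combination held without overlap in both lines. OXA raised DDIT3 3.11-fold in HT29 (log2 1.64, SE 0.06, limma adjusted p = 4.81e-09) and 2.68-fold in HTOXAR3 (log2 1.42, SE 0.06, limma adjusted p = 1.68e-07). Adding Curcumin raised it by a further 1.04 and 0.77 (limma adjusted p of 3.61e-06 and 3.01e-05), so that the combination stood 6.38-fold above untreated HT29 and 4.58-fold above untreated HTOXAR3 (limma adjusted p of 8.33e-11 and 8.65e-10). Between the untreated lines it differed by 0.17, not called.

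XBP1, the factor spliced by IRE1, fell relative to untreated cells after OXA and after the combination in both lines. HT29 arrays read 14.88, 14.93 and 14.98 untreated, 13.95, 14.07 and 14.06 after OXA and 14.25, 14.36 and 14.43 after the combination. HTOXAR3 arrays read 14.50, 14.43 and 14.56 untreated, 13.69, 13.70 and 13.81 after OXA and 14.05, 14.03 and 14.12 after the combination. The treatments did not overlap, and each group of HTOXAR3 lay below the same group of HT29. After OXA, XBP1 fell by 0.90 in HT29 (SE 0.06, limma adjusted p = 1.48e-06) and by 0.76 in HTOXAR3 (SE 0.06, limma adjusted p = 2.03e-05). It was lower in untreated HTOXAR3 by 0.44 (limma adjusted p = 0.00182) and after the combination by 0.58 in HT29 and 0.43 in HTOXAR3 relative to untreated cells (limma adjusted p of 7.92e-05 and 0.00138). The rises on adding Curcumin were small, 0.32 and 0.33. Their calls were lost without any 1 array other than combination replicate 1 in HT29 (limma adjusted p of 0.113 to 0.222) and OXA replicate 3 in HTOXAR3 (0.0672 to 0.165), and the call in HT29 also with slide as a block and with either 75th percentile scaling.

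ATF4 mRNA itself moved little on its probe, whose mean log2 of 16.27 was among the highest of the members. Quantile normalization gives all arrays the same set of values by rank, and combination replicates 1 and 2 of HT29 both read 16.2269. HT29 arrays read 16.49, 16.46 and 16.48 untreated, 16.22, 16.17 and 16.18 after OXA and 16.23, 16.23 and 16.29 after the combination. HTOXAR3 arrays read 16.28, 16.25 and 16.22 untreated, 16.24, 16.31 and 16.27 after OXA and 16.15, 16.23 and 16.19 after the combination. All other groups lay below untreated HT29. The fall after OXA in HT29, 0.29 (SE 0.05, limma adjusted p = 0.00324), was the only call. The differences of −0.23 between the untreated lines (limma adjusted p = 0.0275) and of −0.23 between combination and untreated HT29 (limma adjusted p = 0.0185) passed the adjusted p and not the fold minimum, both being 1.17-fold. In HTOXAR3 the log2 changes were 0.03 after OXA and −0.06 after the combination, and adding Curcumin gave 0.06 in HT29 and −0.08 in HTOXAR3.

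ATF5, a factor of the same family, fell after OXA in HTOXAR3 by 0.39 and after the combination by 0.33 in HT29 and 0.41 in HTOXAR3. CEBPB, the C/EBP partner, was called once, at 0.28 for the combination against untreated HT29. That call was lost without any 1 array other than untreated replicate 3 (limma adjusted p of 0.0609 to 0.245) and with either 75th percentile scaling. Between the untreated lines ATF5 differed by 0.27 and CEBPB by 0.15, not called.

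Of the 5 feedback and growth genes, 4 rose on adding Curcumin in HT29 and 5 in HTOXAR3, where 3.14% and 4.43% of all gene names rose. DDIT4 (REDD1) restrains mTORC1 signalling under stress. HT29 arrays read 9.24, 9.35 and 9.78 untreated, 7.92, 8.09 and 8.25 after OXA and 9.95, 9.98 and 9.87 after the combination. HTOXAR3 arrays read 9.86, 9.87 and 9.99 untreated, 8.90, 8.92 and 9.08 after OXA and 10.22, 10.13 and 10.52 after the combination. The OXA arrays were the lowest and the combination arrays the highest of each line. DDIT4 fell after OXA by 1.37 in HT29 (SE 0.14, limma adjusted p = 3.42e-05) and by 0.94 in HTOXAR3 (SE 0.14, limma adjusted p = 0.00211). Adding Curcumin raised it 3.61-fold in HT29 (log2 1.85, limma adjusted p = 1.55e-05) and 2.50-fold in HTOXAR3 (log2 1.32, limma adjusted p = 0.000148). The combination and untreated cells differed by 0.48 and 0.39, not called.

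CHAC1, which degrades glutathione, also rose on adding Curcumin in both lines. HT29 arrays read 9.39, 9.43 and 9.33 untreated, 8.86, 8.68 and 8.67 after OXA and 10.14, 9.99 and 10.11 after the combination. HTOXAR3 arrays read 9.06, 9.09 and 8.94 untreated, 9.04, 9.10 and 8.82 after OXA and 10.00, 9.93 and 10.21 after the combination. The combination arrays were the highest of each line, while OXA and untreated arrays of HTOXAR3 overlapped. CHAC1 rose on adding Curcumin by 1.34 in HT29 (SE 0.09, limma adjusted p = 8.85e-06) and by 1.06 in HTOXAR3 (SE 0.09, limma adjusted p = 3.88e-05). Relative to untreated cells it rose with the combination by 0.70 and 1.02, the former not called with the mean of its probes. After OXA it fell by 0.64 in HT29 and differed by −0.04 in HTOXAR3, but a further probe of CHAC1, well above background on 17 arrays, gave 0.05 in HT29 and the call was lost with the mean of both. The further probe gave 0.54 and 0.90 on adding Curcumin, not called.

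PPP1R15A (GADD34), the phosphatase subunit that reverses phosphorylation of eIF2α, rose with OXA and further with the combination. HT29 arrays read 10.74, 10.72 and 11.24 untreated, 11.86, 12.02 and 12.08 after OXA and 12.25, 12.53 and 12.45 after the combination. HTOXAR3 arrays read 10.54, 10.50 and 10.64 untreated, 11.39, 11.63 and 11.44 after OXA and 12.26, 12.38 and 12.49 after the combination. The groups of a line did not overlap. OXA raised it by 1.09 in HT29 (SE 0.13, limma adjusted p = 0.000216) and by 0.93 in HTOXAR3 (SE 0.13, limma adjusted p = 0.00172). The combination stood 2.85-fold above untreated HT29 and 3.52-fold above untreated HTOXAR3 (limma adjusted p of 7.67e-06 and 1.61e-06). Adding Curcumin raised it by 0.89 in HTOXAR3 (limma adjusted p = 0.00295), and the 0.42 in HT29 was not called.

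TRIB3, a pseudokinase induced by ATF4 and CHOP, and SESN2, a leucine sensor that restrains mTORC1, rose with the combination in both lines. TRIB3 read 14.26, 14.27 and 14.40 in untreated HT29, 14.81, 14.79 and 14.78 after OXA and 15.32, 15.28 and 15.31 after the combination. SESN2 read 8.22, 8.38 and 8.36 in untreated HTOXAR3, 8.93, 8.87 and 8.85 after OXA and 9.39, 9.37 and 9.43 after the combination. In these lines the groups did not overlap, and the combination was highest. The combination against untreated cells gave 0.99 and 0.86 for TRIB3 and 0.88 and 1.08 for SESN2 in HT29 and HTOXAR3, all called. After OXA, TRIB3 rose by 0.49 in HT29 and differed by 0.21 in HTOXAR3, not called, while SESN2 rose by 0.56 in HTOXAR3 and differed by 0.32 in HT29, not called.

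Of the 6 amino acid and one-carbon synthesis genes, which ATF4 is known to raise, 4 fell after OXA in each line. Over all gene names, 7.62% fell in HT29 and 4.94% in HTOXAR3. ASNS, asparagine synthetase, read 15.33, 15.34 and 15.20 in untreated HT29, 13.78, 13.76 and 13.74 after OXA and 14.80, 14.77 and 14.70 after the combination. In HTOXAR3 it read 14.74, 14.75 and 14.74 untreated, 13.65, 13.70 and 13.61 after OXA and 14.84, 14.65 and 14.94 after the combination. The 3 groups of HT29 did not overlap, while untreated and combination arrays of HTOXAR3 did. OXA lowered ASNS 2.89-fold in HT29 (log2 −1.53, SE 0.07, limma adjusted p = 1.75e-08) and 2.13-fold in HTOXAR3 (log2 −1.09, SE 0.07, limma adjusted p = 2.03e-06). Adding Curcumin raised it by 1.00 and 1.16 (limma adjusted p of 9.36e-06 and 1.55e-06). ASNS was lower in untreated HTOXAR3 by 0.55 (limma adjusted p = 0.000478). Relative to untreated cells, the combination lowered it by 0.53 in HT29 (limma adjusted p = 0.000393) and gave 0.07 in HTOXAR3, not called.

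The serine synthesis enzymes, PHGDH, PSAT1 and PSPH in the order in which they act, fell after OXA and did not rise on adding Curcumin. PHGDH read 11.55, 11.63 and 11.48 in untreated HT29, 10.52, 10.61 and 10.46 after OXA and 10.48, 10.57 and 10.76 after the combination. HTOXAR3 gave 12.10, 12.14 and 12.13 untreated, 11.44, 11.51 and 11.46 after OXA and 11.11, 11.17 and 11.07 after the combination. OXA and combination arrays overlapped in HT29 and not in HTOXAR3, where the combination was lowest. PHGDH fell after OXA by 1.02 and 0.65, and after the combination by 0.95 and 1.01. The further fall of 0.35 on adding Curcumin in HTOXAR3 was lost as a call without any 1 of the 6 arrays (limma adjusted p of 0.0748 to 0.204) and with slide as a block (limma adjusted p = 0.067). PHGDH was higher in untreated HTOXAR3 by 0.57 (limma adjusted p = 0.000471).

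PSAT1 read 13.65, 13.57 and 13.59 in untreated HT29, 12.56, 12.63 and 12.68 after OXA and 12.62, 12.68 and 12.76 after the combination. In HTOXAR3 it read 13.51, 13.47 and 13.47 untreated, 12.86, 12.83 and 12.85 after OXA and 12.84, 12.88 and 12.92 after the combination. Treated arrays lay below untreated arrays, and the OXA and combination arrays overlapped. PSAT1 fell by 0.98 and 0.64 after OXA and by 0.92 and 0.61 after the combination, with differences of 0.06 and 0.04 on adding Curcumin, not called. PSPH read 12.22, 12.35 and 12.28 in untreated HTOXAR3, 11.91, 11.87 and 11.94 after OXA and 11.43, 11.48 and 11.41 after the combination, against 12.87, 12.92 and 12.85 in untreated HT29. These 4 groups did not overlap. PSPH was lower in untreated HTOXAR3 by 0.60 (SE 0.07, limma adjusted p = 0.000282), and fell after the combination by 0.84 there and by 0.59 in HT29. On adding Curcumin it fell by 0.47 in HTOXAR3 (limma adjusted p = 0.00409) and differed by −0.11 in HT29, not called. Its fall of 0.37 after OXA in HTOXAR3 was lost as a call without any 1 array other than untreated replicate 1 (limma adjusted p of 0.0594 to 0.121).

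SHMT2 and MTHFD2, mitochondrial enzymes of one-carbon metabolism, were called with the combination and not with OXA. SHMT2 read 14.22, 14.30 and 14.32 in untreated HTOXAR3, 14.20, 14.20 and 14.22 after OXA and 13.70, 13.93 and 13.82 after the combination. The combination arrays were the lowest, and untreated and OXA arrays overlapped. SHMT2 fell after the combination by 0.47 in HT29 and 0.46 in HTOXAR3, and MTHFD2 by 0.49 in HT29, while −0.25 in HTOXAR3 stayed under the fold minimum. On adding Curcumin SHMT2 fell by 0.39 in HTOXAR3, a call lost without any 1 array other than combination replicate 2 (limma adjusted p of 0.12 to 0.2).

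The transporters of amino acids split. SLC7A5 (LAT1) and SLC3A2 encode the chains of 1 heterodimer that imports leucine and other large neutral amino acids. SLC7A5 read 12.49, 12.52 and 12.48 in untreated HT29, 11.01, 10.93 and 10.96 after OXA and 11.34, 11.26 and 11.36 after the combination. In HTOXAR3 it read 12.74, 12.96 and 12.81 untreated, 12.15, 12.15 and 12.23 after OXA and 12.28, 12.18 and 12.33 after the combination. Every HTOXAR3 array lay above every HT29 array of the same treatment. SLC7A5 fell after OXA 2.89-fold in HT29 (log2 −1.53, SE 0.06, limma adjusted p = 8.49e-09) and 1.59-fold in HTOXAR3 (log2 −0.67, SE 0.06, limma adjusted p = 6.22e-05), and after the combination by 1.18 and 0.58. The difference of 0.34 between the untreated lines was lost as a call without HT29 untreated replicate 1 or 3 or HTOXAR3 untreated replicate 2 (limma adjusted p of 0.0643 to 0.0815).

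SLC3A2, the other chain, read 12.77, 12.77 and 12.66 in untreated HT29, 12.89, 12.89 and 12.81 after OXA and 13.60, 13.52 and 13.47 after the combination. The combination arrays were above all others. SLC3A2 differed after OXA by 0.13 and −0.02, not called, and rose on adding Curcumin by 0.67 in HT29 and 0.74 in HTOXAR3 (limma adjusted p of 0.000318 and 8.99e-05). The glutamine transporter SLC1A5 rose on adding Curcumin by 0.55 in HTOXAR3 (limma adjusted p = 0.000639). In HT29 its 0.35, like the 0.35 of SLC7A5, was lost as a call without any 1 of the 6 arrays (limma adjusted p of 0.0502 to 0.159 and of 0.0536 to 0.137), with slide as a block and with either 75th percentile scaling. SLC6A9, a glycine transporter, read 6.94, 7.14 and 6.82 in untreated HT29, 5.64, 5.83 and 5.87 after OXA and 6.19, 5.85 and 6.60 after the combination. It fell after OXA by 1.18 in HT29 (SE 0.16, limma adjusted p = 0.000744), and the −0.66 in HTOXAR3 was not called. The fall of 0.75 with the combination in HT29 was lost as a call without untreated replicate 1 or 2 or combination replicate 1 or 2 (limma adjusted p of 0.0906 to 0.163) and with slide or replicate as a block.

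VLDLR, a lipoprotein receptor, was called in no comparison, with log2 changes between −0.24 and 0.23. STC2, a secreted glycoprotein, was near background, and its SE of 0.63 was the widest of the members. By the probe that stands for each gene, those called in none of the 7 comparisons of 2 groups were thus 7 in all. They were ATF6, EIF2AK3, VLDLR, STC2, PDIA6, CRELD2 and CANX, and a further probe of PDIA6 was called.

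**Figure D3:**
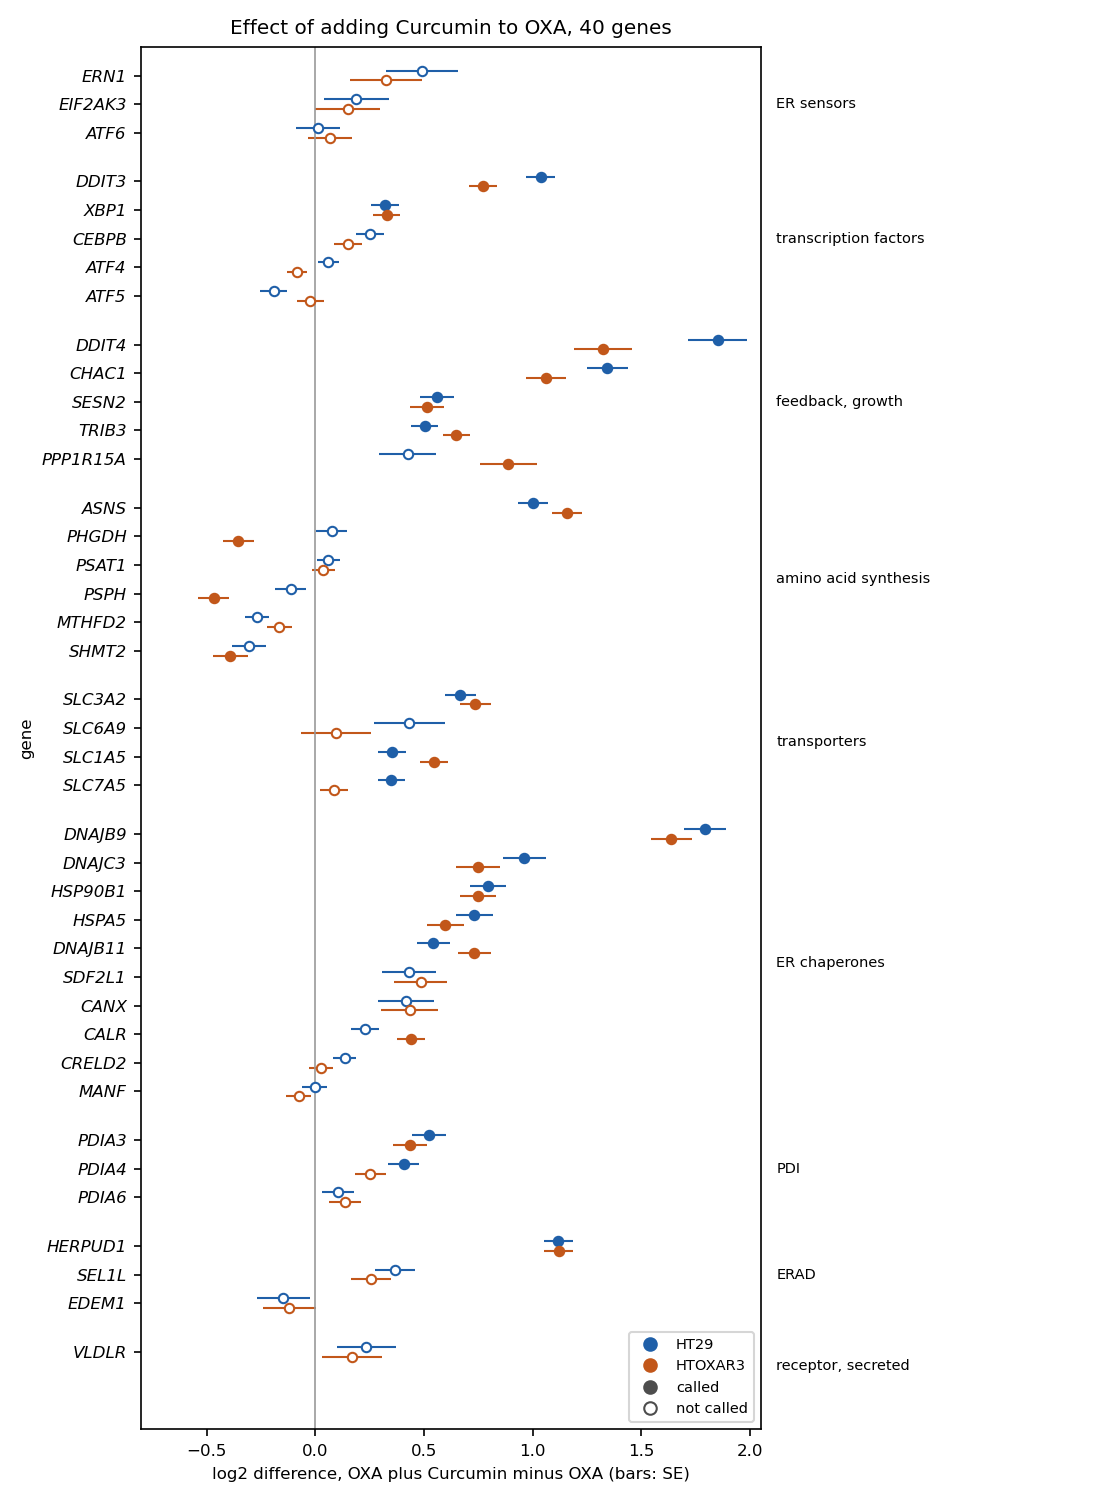
Log2 difference between OXA plus Curcumin and OXA alone for 40 genes (STC2, near background, is not drawn), grouped by role, in HT29 (blue) and HTOXAR3 (orange). Bars are SE and filled points are called differences. DNAJB9, DDIT4, CHAC1, HERPUD1 and ASNS lie at 1.00 or above in both lines, and the serine synthesis genes lie at or below 0.07.

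The lines were compared directly through the difference of their responses, HTOXAR3 minus HT29. The change after OXA was smaller in HTOXAR3 for 32 of the 41 genes, and for 22 of the 23 called in HT29, HERPUD1 being the exception. Among the 18 called in HTOXAR3 it was smaller for 14. A list called in a line tends to hold that line's larger values, so these counts are a description. The same count was not made over all gene names, of which fewer were called after OXA in HTOXAR3 (10.2%) than in HT29 (15.9%). SLC7A5 was called, with a difference of 0.86 (SE 0.09, limma adjusted p = 0.00083), while 1.01% of all gene names were. Its arrays are those given above, where HT29 fell by 1.53 and HTOXAR3 by 0.67. The call held without each of the 12 arrays, and 14 genes with a difference above 0 and 3 with one below had an unadjusted p under 0.05, as had 13.7% of all gene names and 21.7% of those well above background on all arrays. HSPA5 differed by 0.47 (SE 0.12, limma adjusted p = 0.546), DDIT3 by −0.21, XBP1 by 0.14 and ATF4 by 0.32, none called.

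**Figure D4:**
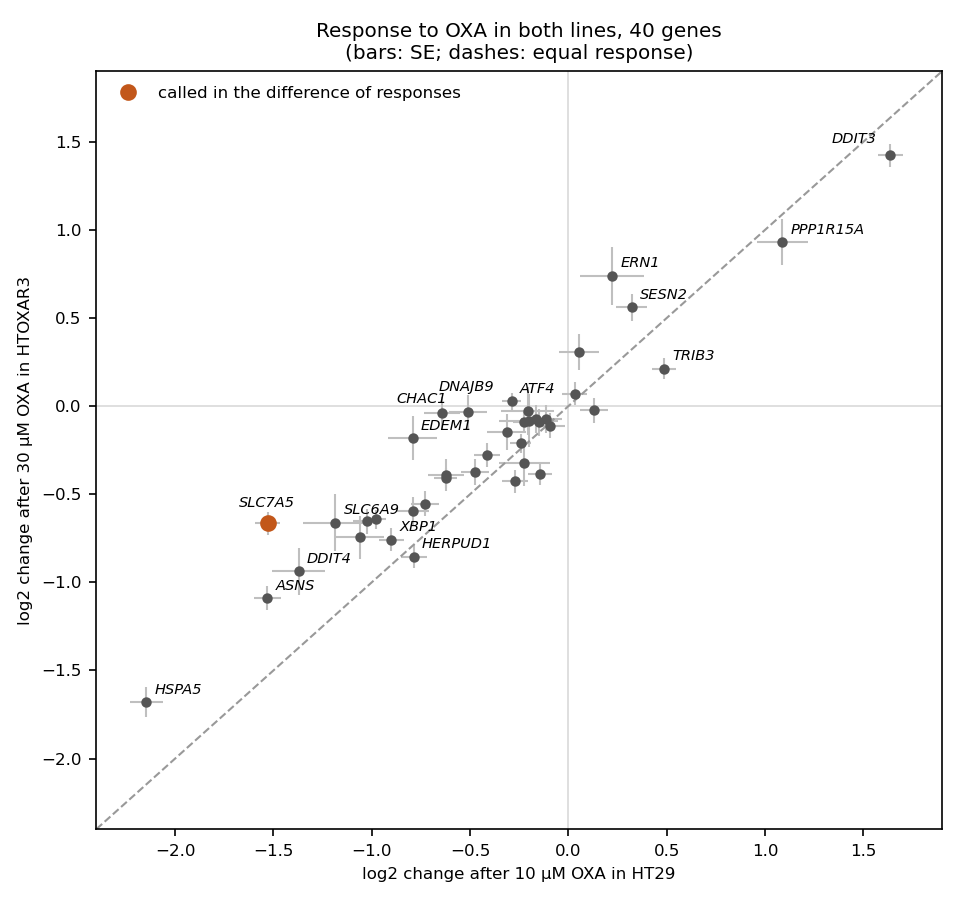
Log2 change after OXA in HT29 (x axis, 10 µM) against HTOXAR3 (y axis, 30 µM) for 40 genes (STC2 is not drawn), with SE as bars and a dashed line where the changes are equal. The points share no arrays between the axes. SLC7A5, marked in orange, was the gene called in the difference of the responses, at −1.53 and −0.67, and most genes that fell lie above the dashed line.

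For the response to OXA plus Curcumin, ASNS and SLC7A5 were called, with differences of 0.60 (SE 0.10, limma adjusted p = 0.0452) and 0.60 (SE 0.09, limma adjusted p = 0.0239), against 0.856% of all gene names. Both calls rested on the choice of model. With slide as a block the limma adjusted p was 0.0894 for ASNS and 0.083 for SLC7A5, and with the replicate block 0.0938 and 0.0567. ASNS was lost without any 1 array other than HT29 untreated replicate 3 and HTOXAR3 combination replicate 2 (limma adjusted p of 0.0721 to 0.158), and SLC7A5 without any 1 array other than HTOXAR3 untreated replicate 2 and HTOXAR3 combination replicate 2 (limma adjusted p of 0.0504 to 0.0966). For DDIT3 the difference was −0.48 (SE 0.09, limma adjusted p = 0.12), for HSPA5 0.33, for ATF4 0.17 and for XBP1 0.15, none called.

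The effect of adding Curcumin differed between the lines for 0 members, against 0.135% of all gene names, and 9 members had an unadjusted p under 0.05, as had 9.74% of all gene names and 14.9% of those well above background on all arrays. DDIT4 gave −0.53 (SE 0.19), PPP1R15A 0.46 (SE 0.18), PHGDH −0.43 (SE 0.10) and DDIT3 −0.27 (SE 0.09). HSPA5 gave −0.13 (SE 0.12), ATF4 −0.14 (SE 0.07) and XBP1 0.01 (SE 0.09).

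Read by the motifs printed above, the 9 members with an ERSE or ERSE-II had a median log2 change after OXA of −0.79 in HT29 and −0.60 in HTOXAR3, with 5 and 6 of the 9 called, all lower, where 15.9% and 10.2% of all gene names were called in either direction. After OXA the 5 members with an ATF4 and C/EBP element had medians of −0.64 and −0.28, with 4 and 2 called, all lower. The 25 with none of these motifs had −0.29 and −0.09, with 11 and 7 called lower and 3 and 3 higher. On adding Curcumin the median of the 9 with ERSE or ERSE-II was 0.42 and 0.44, with 4 and 5 called, all higher. The 5 members with an ATF4 and C/EBP element (ASNS, CHAC1, HERPUD1, SLC1A5 and SLC3A2, the last with it after its start) rose on adding Curcumin in both lines, 5 of 5, with medians of 1.00 and 1.06. Of these calls, that of SLC1A5 in HT29 was lost without any 1 of the 6 arrays (limma adjusted p of 0.0502 to 0.159). The further probe of CHAC1 was not called in either line. The 25 members with none of these motifs had medians of 0.35 and 0.17, with 9 and 8 called higher and 0 and 1 lower, against 5.53% and 8.83% of all gene names called. Among gene names well above background on all arrays, the share called was 31.0% and 20% after OXA and 10.9% and 17.3% on adding Curcumin. HERPUD1 counts in both motif groups, and a match in a window is not a bound site.

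Several members have further probes, which did not always give the same value. PDIA6 has a further probe at chr2:10907995-10908054 (GRCh37), annotated to a predicted transcript, beside the one at chr2:10927412-10927471. The further probe rose on adding Curcumin by 1.42 in HT29 and 1.26 in HTOXAR3 (SE 0.20, limma adjusted p of 0.00395 and 0.0057), where the probe that stands for the gene gave 0.10 and 0.14. Relative to untreated cells, the combination raised the further probe by 1.14 and 1.09, where the other probe gave 0.01 and 0.02, not called. A further probe of PDIA3 fell after OXA by 0.76 in HT29 and 0.43 in HTOXAR3 (SE 0.06), where the probe that stands for the gene gave −0.11 and −0.07, and both rose on adding Curcumin. Between the untreated lines the further probe was lower in HTOXAR3 by a log2 difference of −0.32, called, where the other gave −0.25, not called. With the combination against untreated cells it gave −0.13 and 0.16, not called, where the other gave 0.41 and 0.36. Those latter calls were lost without any 1 of 4 of the 6 arrays in HT29 (limma adjusted p of 0.0548 to 0.0715) and of 5 of the 6 in HTOXAR3 (limma adjusted p of 0.0566 to 0.19), namely untreated replicates 1 and 2 and combination replicates 1 and 2 in HT29, and all untreated replicates and combination replicates 1 and 3 in HTOXAR3. A further probe of SEL1L rose on adding Curcumin by 0.63 in each line (limma adjusted p of 0.0124 and 0.00796), where the probe that stands for the gene gave 0.37 and 0.26, not called. Both further probes of SEL1L, the dimmer of them well above background on 14 arrays, missed the calls of the probe that stands for it after OXA in HT29 (−0.55 and −0.32 against −0.62) and between the untreated lines (0.20 and 0.46 against 0.43). A further probe of DNAJC3, at chr13:96395088-96395147 and well above background on 10 arrays, gave −0.24 and 1.12 on adding Curcumin, 0.54 and 1.39 with the combination against untreated cells and −0.96 between the untreated lines, none called. A further probe of CHAC1 gave 0.59 and 0.69 with the combination against untreated cells, not called. A further probe of SLC6A9 was well above background on 1 of the 18 arrays and was called in no comparison. In HT29 it gave −0.51 after OXA and −0.50 with the combination against untreated cells, where the other probe gave −1.18 and −0.75. The 2 probes of HSP90B1 and the 2 of PSAT1 gave the same calls in all comparisons of 2 groups.

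Beyond the members, 44 other ATF4 and integrated stress response genes and 52 other genes of the ER response were read from lists. Adding Curcumin raised 9 of the 52 ER genes in HT29 and 12 in HTOXAR3 and lowered 0 in both, a share of 17.3% and 23.1% called, against 5.53% and 8.83% of all gene names and 10.9% and 17.3% of those well above background on all arrays. The rises were led by SEC24D (0.70 and 0.74), a coat protein of ER export. WFS1, an ER membrane protein, rose by 0.66 and 0.64. VCP and UFD1L, which extract proteins from the ER for degradation, rose by 0.62 and 0.57 and by 0.42 and 0.71. Among the 44 ATF4 genes, adding Curcumin raised 6 and lowered 3 in HT29, and raised 5 and lowered 7 in HTOXAR3, 20.5% and 27.3% called. CTH, an enzyme of cysteine synthesis, rose by 1.68 and 1.52, and MAP1LC3B (LC3B), of autophagosomes, by 1.38 and 1.44. The cystine transporter SLC7A11 rose by 1.15 in HT29, and the autophagy receptor SQSTM1 by 1.17 in HTOXAR3. TXNIP fell in HT29 by 0.97, PYCR1, of proline synthesis, by 0.52 in HT29 and 0.51 in HTOXAR3, EIF4EBP1 by 0.41 in HT29, and FGF19 by 1.36 and JDP2 by 0.56 in HTOXAR3.

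After OXA, 7 of the 44 ATF4 genes rose and 15 fell in HT29, and 5 rose and 4 fell in HTOXAR3. The share called was 50% and 20.5%, against 15.9% and 10.2% of all gene names. Among gene names well above background on all arrays it was 31.0% and 20%. TXNIP rose by 1.96 and 1.32, and ATF3, a stress factor, by 1.23 in HT29. EIF2AK4 (GCN2) rose by 0.85 in HT29, and GDF15 by 0.82 and FGF19 by 0.98 in HTOXAR3. LONP1, a mitochondrial protease, fell by 1.10 in HT29, and its response differed between the lines by 0.92 (SE 0.08, limma adjusted p = 0.000216), as did that of GARS by 0.45 (SE 0.08, limma adjusted p = 0.0441). SLC7A11 fell by 0.87 and YARS by 0.81 in HT29, and PCK2 by 0.64, EIF2S1 by 0.54 and CEBPG by 0.43 in HTOXAR3. Of the 52 ER genes, 7 rose and 9 fell in HT29 and 5 rose and 5 fell in HTOXAR3. The share called was 30.8% and 19.2%, against 15.9% and 10.2% of all gene names. Among those well above background on all arrays it was 31.0% and 20%. ERP44, which retains thiol proteins in the ER, fell most in both (1.08 and 0.85), and CREB3 rose in both (0.62 and 0.43).

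Relative to untreated cells, the combination raised 14 and lowered 5 of the 52 ER genes in HT29, and raised 17 and lowered 5 in HTOXAR3, 36.5% and 42.3% called against 18.6% and 17.5% of all gene names and 35.6% and 33.4% of those well above background on all arrays. CREB3, an ER-anchored factor, rose by 1.09 and 0.93, while ERP44 fell by 1.37 in HT29. Of the 44 ATF4 genes, 8 rose and 15 fell in HT29 and 9 rose and 13 fell in HTOXAR3, 52.3% and 50% called. MAP1LC3B rose by 2.03 and 1.75, CTH by 1.08 and 1.13, and ATF3 by 1.60 in HT29, while SQSTM1 rose by 1.39 in HTOXAR3. PCK2 fell by 0.86 and 1.04 and PYCR1 by 0.98 and 0.65, LONP1 by 0.97 in HT29 and JDP2 by 0.71 in HTOXAR3. Between the untreated lines, 4 of the 44 were higher and 10 lower in HTOXAR3, 31.8% called, and 2 and 4 of the 52, 11.5% called, which is the share of all gene names and below the 21.6% of those well above background on all arrays. FGF19, an enteric hormone, was lower by 4.68 on the log2 scale, ERN2, the epithelial form of IRE1, by 1.81 and NUPR1 by 1.36, while VEGFA was higher by 1.22, WARS by 1.17 and VIMP by 0.82.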

How the data were processed

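Total RNA of 18 samples (6 groups of 3 biological replicates, per the labels) was labelled with Cy3 and hybridised to one-colour arrays. The authors deposited, for each array, the output of Feature Extraction 10.7.3.1, whose mean spot intensity and median local background intensity are linear values with no scaling between arrays. A file of processed log2 values that the authors deposited has no gene or probe names, and was not used here. The mean intensity was corrected with normexp (offset 0) and quantile normalized, control spots were left out after normexp, outlier-flagged spots were set to missing (30 spots of members), replicate spots of the 50599 probes were averaged, and the probe with the highest mean stood for each of 36204 gene names. All 41 members matched RefSeq by accession. Probe positions are those of the array design on GRCh37.

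The linear model had 6 group terms over 18 arrays (limma 3.58.1, lmFit then eBayes, run under R 4.3.3 with the data.table package 1.17.8), used BY adjustment over all gene names, and was tested on simulated data. Promoter searches used Python 3.11.15, tables pandas 2.3.3, and plots matplotlib 3.10.9. All members are accounted for by role. Called members among the 6 strongest changes in either direction of a comparison, ATF4, XBP1, DDIT3 and HSPA5 in every comparison, members called in a difference between the lines, probes of a member that differ in call, and the 3 strongest changes in either direction among other pathway genes are named with values. The members and lists were chosen with earlier results of these data known. Where separate cultures are not described, p-values measure the spread between these samples. Precision is limited by having 3 arrays in a group. As inferred from the names of the deposited array outputs, the arrays lay on 3 slides. The smallest held 2 arrays, HT29 untreated replicate 1 and HT29 OXA replicate 1, so slide was not balanced over line and treatment.

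To see whether replicate numbers pair the samples, each array's deviations from its group mean were correlated with those of its namesake. All pairs exceeded 0.1 for OXA against untreated HT29 (0.118 to 0.241) and for adding Curcumin in HTOXAR3 (0.108 to 0.194), and not for the other comparisons. No source describes a pairing. The alternatives were a normexp offset of 50, the mean of all probes (also, chosen after seeing the data, without arrays on which a probe is missing), each further probe, 2 scalings to the 75th percentile, a filter on dim probes, slide or replicate number as a block, Benjamini-Hochberg adjustment, each array left out, values within slides, and only the groups compared in the model.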

Additional observations from a re-analysis of the deposited data

Results flagged for a closer look

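In 3 cases the test of the difference itself gave a call for a response that differed between the lines. The response of SLC7A5 to OXA differed by 0.86 on the log2 scale, HTOXAR3 minus HT29, with HT29 at −1.53 and HTOXAR3 at −0.67. The response of ASNS to OXA plus Curcumin differed by 0.60, with HT29 at −0.53 and HTOXAR3 at 0.07. The response of SLC7A5 to OXA plus Curcumin differed by 0.60, with HT29 at −1.18 and HTOXAR3 at −0.58. Both calls for OXA plus Curcumin were lost with slide or replicate as a block. Each was also lost when any of 10 of the 12 arrays was left out, while the SLC7A5 call for OXA held without each array. The lines received different doses of OXA, so that line and dose cannot be told apart, and the SLC7A5 differences share the untreated arrays.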

How the results depend on the processing

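The members gave 138 calls over the 10 comparisons, and 115 of them held without each array in turn, with none reversed. Without 1 array, the count of called members ranged from 5 to 7 between the untreated lines, from 22 to 24 after OXA in HT29 and 17 to 18 in HTOXAR3, from 20 to 26 and 19 to 20 for the combination against untreated cells, and from 14 to 16 and 17 to 19 on adding Curcumin. For the differences between the lines it was 1 for OXA, 0 to 2 for the combination and 0 for adding Curcumin. Of the 138 calls, 138 were kept with Benjamini-Hochberg adjustment, 138 with a normexp offset of 50, 138 with dim probes left out, 129 and 131 with 75th percentile scaling of normexp and of processed signals, 131 with slide as a block, 126 with the mean of all probes and 45 when the model held no other groups. Over the 28 pairs of a call and a further probe of its gene, the further probe kept the call in 10. The model that held no other groups has fewer arrays. It called 0 members between the untreated lines, 9 and 7 after OXA, 13 and 13 for the combination against untreated cells, 0 and 2 on adding Curcumin and 0 for the difference in the response to the combination. For that difference the count was 1 with the mean of all probes, 0 with slide as a block and 4 with Benjamini-Hochberg adjustment. For the difference in the response to OXA it was 2 with an offset of 50 and 6 with Benjamini-Hochberg adjustment, which gave 14 between the untreated lines. DNAJC3 on adding Curcumin in HT29 gave −0.65 with the mean of all probes, which on HT29 OXA replicate 1 holds its brighter probe alone because the dimmer one is missing there. An alternative chosen after seeing the data, the mean without such arrays, gave 0.41, kept 126 calls with none reversed, and left 1 call for the difference in the response to the combination. Directions reversed for DNAJC3 in the same comparison with its further probe (−0.24), for CHAC1 after OXA in HT29 (0.046, further probe) and for PDIA3 with the combination against untreated HT29 (−0.13, further probe), and the cause was not tested. The 75th percentile scalings moved the median of all gene names by up to −0.20.

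The replicate block kept 133 of the 138 calls. It ended those of ERN1 and SLC6A9 for the combination in HT29, of PDIA3 for it in HTOXAR3, and of ASNS and SLC7A5 for the difference in the response to the combination, where the count was 0. It changed no call of a member after OXA in HT29 or on adding Curcumin in HTOXAR3, the comparisons whose pairs all correlated. Signal over background limits STC2 and ERN1.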
